A study of Homo sapiens with 48 samples.

Results

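An alternative 5′ splice site is a choice at the end of an exon: the same exon can be cut at 2 or more positions, called donors, so that a stretch of sequence between them is either kept in the mRNA or removed with the intron. The event table listed 15804 such donors, and 693 of them were examined here. They were chosen as donors with a value in all 48 libraries, read coverage in every library, and a difference of at least 5 percentage points between the highest and the lowest library. The 693 donors formed 341 sets in 331 genes, of which 302 were pairs, 35 had 3 donors and 4 had 4 donors. Use of a donor was measured as percent spliced in (PSI), the share of the junction reads of a set that used this donor. The PSI of a set add up to 100, so the donor that gave the shortest exon was left out wherever another donor of its set had passed, and 371 donors were tested. In a pair, the value given is that of the downstream donor, which makes the longer exon. The range was taken over all libraries without regard to their labels, but it used the same PSI values that are compared below, and a donor can pass it through 1 group alone. The counts below are therefore descriptions. The donors closest to the limit had a range of 5 points on the inside and 4.98 points on the outside, and the median range of the 693 was 11.7 points.

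The libraries came from IMR90 ER:RAS cells, human fetal lung fibroblasts that carry HRAS G12V in fusion with an estrogen receptor domain. Cells received DMSO, which leaves the fusion inactive, or 4-hydroxytamoxifen (4OHT), which activates RAS and triggers senescence. They were induced for 6 days, kept in low serum, and collected 2 days after transfection with a non-targeting siRNA (siNT) or with an siRNA to SF3B1 or RBM39. Each of the 6 groups held 8 libraries, made of 2 siRNAs with 4 replicates each: siNT1 and siNT2, siSF3B1-13 and siSF3B1-16, siRBM39-06 and siRBM39-08. All groups share the ER:RAS fusion, and nothing in the labels says that replicates were separate cultures, so p-values measure the spread between these libraries. The siNT2 libraries in 4OHT carry siNT1 in their treatment label, and were grouped by title. No group without the fusion was included, so an effect of 4OHT that does not pass through RAS cannot be told apart from that of RAS.

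A 5′ splice site is first read by the U1 snRNP, whose RNA pairs with the last bases of the exon and the first bases of the intron, and is then handed to U6. SF3B1 does not touch the donor. It is part of the U2 snRNP, which binds the branch point at the other end of the intron, and RBM39 is a relative of U2AF2 that works in 3′ splice-site recognition. When 2 donors lie close together, the choice between them depends on how well each pairs with U1 and on proteins that bind nearby, among them SR proteins, hnRNPs, TIA1 and the LUC7-like proteins of the U1 snRNP. The comparisons ask how loss of SF3B1 or RBM39, and activation of RAS, moved that choice.

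Libraries held 31467221 to 52734636 counts on genes, with a median of 39656598. SF3B1 averaged 345 ± 22.8 CPM (counts scaled to the library total, SD, n = 8) with siNT in DMSO and 32.8 ± 1.65 in DMSO siSF3B1, and 332 ± 8.10 and 27.5 ± 1.92 in 4OHT. RBM39 averaged 164 ± 8.69 and 26.6 ± 2.15 CPM in DMSO siNT and siRBM39, and 122 ± 4.41 and 16.4 ± 1.55 in 4OHT. Neither target overlapped between its knockdown and siNT. The senescence genes IL6 and CDKN2B were higher in 4OHT, with log2 changes of 6.48 and 2.38, and MKI67 and LMNB1 were lower, with −3.58 and −2.47 (edgeR, all called). All 7 fibroblast markers exceeded 10 CPM in every group mean. Of 7 markers of other cell types with counts, 3 were under 1 CPM in every group (CDH1, PTPRC and MYH11), EPCAM, KRT5 and VWF lay between 0.543 and 5.84 CPM, and CD68, a lysosomal protein used as a macrophage marker, was at 36.6 to 91.6 CPM and higher in the 4OHT groups. Their part in the donor values was not tested. In gene expression, 1 library stood apart: siRBM39-08 replicate 4 in 4OHT lay 0.786 log2 units (root mean square over genes) from the other replicates of its siRNA and treatment, and the next library 0.348. The counts of called donors and the differences at named donors of the 4OHT siRBM39 group are given with and without it. Calls that were lost when 1 replicate number was left out of every siRNA are given with the values they then had.

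Most pairs were close. The distance between the donors ran from 1 to 296 nucleotides with a median of 30.5, and 90 of 302 pairs lay within 12 nucleotides. A distance of 4 nucleotides, that of tandem donors of the form GTNNGT, was found in 21 pairs. In 131 pairs, or 43.4%, the distance was a multiple of 3. In siNT cells, 99 pairs used the downstream donor in under 20% of reads, 163 in over 80%, and 40 in between, so most pairs had a major and a minor donor. A PSI rested on a median of 55 reads (5th to 95th percentile 22 to 174).

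Of the donors, 609 matched an annotated exon end; 583 of these began their intron with GT, 21 with GC and 5 with other bases. Donor strength was scored in bits, from the base frequencies at 9 positions (3 in the exon, 6 in the intron) of 307594 annotated donors, whose median was 7.95. Both donors could be scored in 236 pairs. Use followed the scores loosely. The siNT PSI of the downstream donor had a median of 6.08% in the 37 pairs where it was weaker by over 3 bits. In the 44 pairs where it was weaker by 1 to 3 bits, the median was 5.23%, and in the 64 pairs within 1 bit 29.98%. Where the downstream donor was stronger, the median was 95.4% in 35 pairs (by 1 to 3 bits) and 96.5% in 56 pairs (by over 3 bits). Across the 236 pairs, which share libraries, Pearson's r was 0.297 and Spearman's rank coefficient 0.394, given as a description.

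The following sets are shown because a donor in each was called in a comparison with siNT without overlap between the groups. Coverage of that donor was in the class LOW or better in every library (classes N, VLOW, LOW, OK and SOK, from least to most). Each is written 5′ to 3′ with the 3 last exon bases and the 6 first intron bases, GT in capitals, as read from the GRCh37 reference at annotated exon ends (GENCODE 44). In LUC7L3 the upstream donor scored 6.77 bits and the downstream one 11.7, close to a full match to U1. The 3 scored HNRNPH1 donors were all weak, at 2.68, 2.40 and 2.46 bits. In TAX1BP1 the downstream donor was the weaker, at 4.77 against 7.17 bits, and in PKD1 the donors scored 6.16 and 5.78.
LUC7L3 upstream donor: aagGTgaca
LUC7L3 downstream donor, 53 nucleotides on: gagGTaagt
HNRNPH1 donor 2 of 4: gtgGTgctt
HNRNPH1 donor 3 of 4: acgGTagcc
HNRNPH1 donor 4 of 4: tgtGTaaat
TAX1BP1 upstream donor: aagGTcaga
TAX1BP1 downstream donor, 126 nucleotides on: gagGTtatt
PKD1 upstream donor: acgGTgcgt
PKD1 downstream donor, 13 nucleotides on: cggGTgggg

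In the next 3 pairs, chosen after their values were seen, the donors lie so close that both fit in 1 window, and the capitals mark the GT of each. In HSD17B10 the upstream donor scored 9.45 bits and the downstream one 7.93. C3orf17 (NEPRO in the annotation) and SF1 have tandem donors 4 nucleotides apart that share the same downstream donor sequence, at 8.17 bits, behind upstream donors of 9.62 and 8.79 bits.
HSD17B10, donors 14 nucleotides apart: cagGTgtgtgggcagggGTaaga
C3orf17, donors 4 nucleotides apart: caaGTaaGTaagt
SF1, donors 4 nucleotides apart: tggGTaaGTaagt

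Loss of SF3B1 shifted donor choice at a minority of sets, mostly towards the downstream donor and a longer exon. A donor was called when its Benjamini-Hochberg adjusted p (limma on logit PSI, over 13840 splicing events of all kinds) was under 0.05 and the mean PSI differed by at least 5 points. In DMSO, 33 of 371 donors, or 8.89%, were called in siSF3B1 against siNT, 24 with a higher and 9 with a lower PSI, in 31 genes. Over all events 19.8% were called, 5.25% rising and 14.6% falling, most of the latter cassette exons. In 4OHT, 28 donors (7.55%) were called, 22 rising and 6 falling, against 23% of all events, 6.70% rising and 16.3% falling. The called share of alternative 5′ sites was thus below that of all events in both treatments. By kind, it was 13.9% and 15.3% for alternative 3′ sites, 26.7% and 29.9% for exons, and 11.1% and 14.8% for retained introns. The kinds differ in spread. In 4OHT against DMSO with siNT, where few events were called, the median size of a difference was 1.04 points for alternative 5′ sites. It was 0.898 for alternative 3′ sites, 0.35 for exons and 0.37 for introns. Whether this spread lowered the called share of alternative 5′ sites was not tested. Of the called pairs, 21 of 27 in DMSO and 20 of 23 in 4OHT moved to the downstream donor. All 33 and all 28 lay on the same side with both SF3B1 siRNAs. Of the 371 donors, 7 in DMSO and 9 in 4OHT did not overlap between siSF3B1 and siNT, against 14.1% and 17.9% of all events.

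LUC7L3, a protein of the U1 snRNP that itself helps to choose donors, was among the largest shifts. The stretch lies at chr17:50750642-50750694 on the plus strand (GRCh38). In DMSO siNT, the downstream donor had a PSI from 54.4 through a median of 65.8 to 77.99%, and in DMSO siSF3B1 from 92.0 through 96.6 to 100%. The groups did not overlap, the rise was 30.2 points (adjusted p = 1.82e-10), and the upstream donor was almost unused after the knockdown. In 4OHT, siNT ran from 67.8 through 78.5 to 86.2% and siSF3B1 from 78.5 through 95.1 to 100%, a rise of 17.03 points (adjusted p = 4.45e-06) with overlap at 1 siSF3B1 library. The siRBM39 libraries had medians of 73.2% in DMSO and 74.6% in 4OHT and were called in neither. LUC7L3 mRNA had a log2 change of −0.20 with siSF3B1 in DMSO (adjusted p = 0.00352) and 0.04 with siSF3B1 in 4OHT (adjusted p = 0.606). The change in DMSO was not called without replicate 2 (−0.135).

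HNRNPH1 encodes a G-tract-binding hnRNP that also acts on donor choice. Its set has 4 donors on chromosome 5 (minus strand), and the fourth adds 42 nucleotides to the shortest form (chr5:179617021-179617062, GRCh38). This donor had a PSI from 7.37 through 16.7 to 20.4% in DMSO siNT and from 44.1 through 50.7 to 62.7% in DMSO siSF3B1. Every siSF3B1 library was above every siNT library, and the rise was 36.01 points (adjusted p = 4.38e-13), the largest of the called rises in DMSO. In 4OHT, the medians were 22.6% in siNT and 48.7% in siSF3B1, again without overlap, a rise of 25.6 points (adjusted p = 3.12e-08). The donor before it, which adds 12 nucleotides, was the major donor in siNT and gave way: it fell by 35.8 points in DMSO and by 24.7 in 4OHT. After siRBM39 the fourth donor rose by 11.8 points in DMSO (from a median of 16.7 to 28.4%, no overlap, adjusted p = 0.00100) and 15.9 in 4OHT (adjusted p = 0.000535; 14.6 without siRBM39-08 replicate 4). HNRNPH1 mRNA fell with siSF3B1, by 0.64 and 0.69 on the log2 scale. Reads shared with the related gene HNRNPH2 could not be separated here, and both donors are parts of 1 set, not separate events.

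TAX1BP1, a receptor for selective autophagy, gained 126 nucleotides of coding sequence (chr7:27816395-27816520, plus strand, GRCh38), a multiple of 3. PSI ran from 16.4 through 31.3 to 37.2% in DMSO siNT and from 42.3 through 52.6 to 61.8% in DMSO siSF3B1. In 4OHT, it ran from 17.3 through 30.3 to 45.4% and from 47.8 through 60.1 to 68.0%. The groups were apart in both treatments, with rises of 22.3 points (adjusted p = 2.89e-05) and 27.1 points (adjusted p = 1.05e-06). After siRBM39, the median was 37.8% in DMSO, which was not called, and 43.1% in 4OHT, a rise of 13.9 points (adjusted p = 0.0228; 14.3 points without siRBM39-08 replicate 4). This call was lost without replicate 1 or 3 (11.4 to 13.8 points).

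PKD1, which encodes polycystin-1, moved to a downstream donor that no annotated coding transcript uses (chr16:2103253-2103265, minus strand, GRCh38). PSI went from a median of 4.91% in DMSO siNT to 12.3% in siSF3B1, without overlap, a rise of 7.64 points (adjusted p = 2.30e-05), and in 4OHT it rose by 5.19 points, with overlap (adjusted p = 0.00311). After siRBM39 it rose by 5.24 points in DMSO, without overlap (adjusted p = 0.00399). The 4OHT call was lost without replicate 1 or 2 (4.05 to 4.94 points), and the siRBM39 call without replicate 1 or 4 (4.67 to 4.94 points). PKD1 has near-identical pseudogenes on the same chromosome, so reads may be shared and these values are uncertain. PKD1, LUC7L3, HNRNPH1, TAX1BP1 and GRINA met the rule for named donors (called, no overlap, at least LOW coverage). GRINA, a membrane protein of the TMBIM family, rose in 4OHT from a median of 61.3 to 70.1% after siSF3B1, by 10.4 points without overlap (adjusted p = 0.0173), and was not called without replicate 2 (8.76 points).

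**Figure D1:**
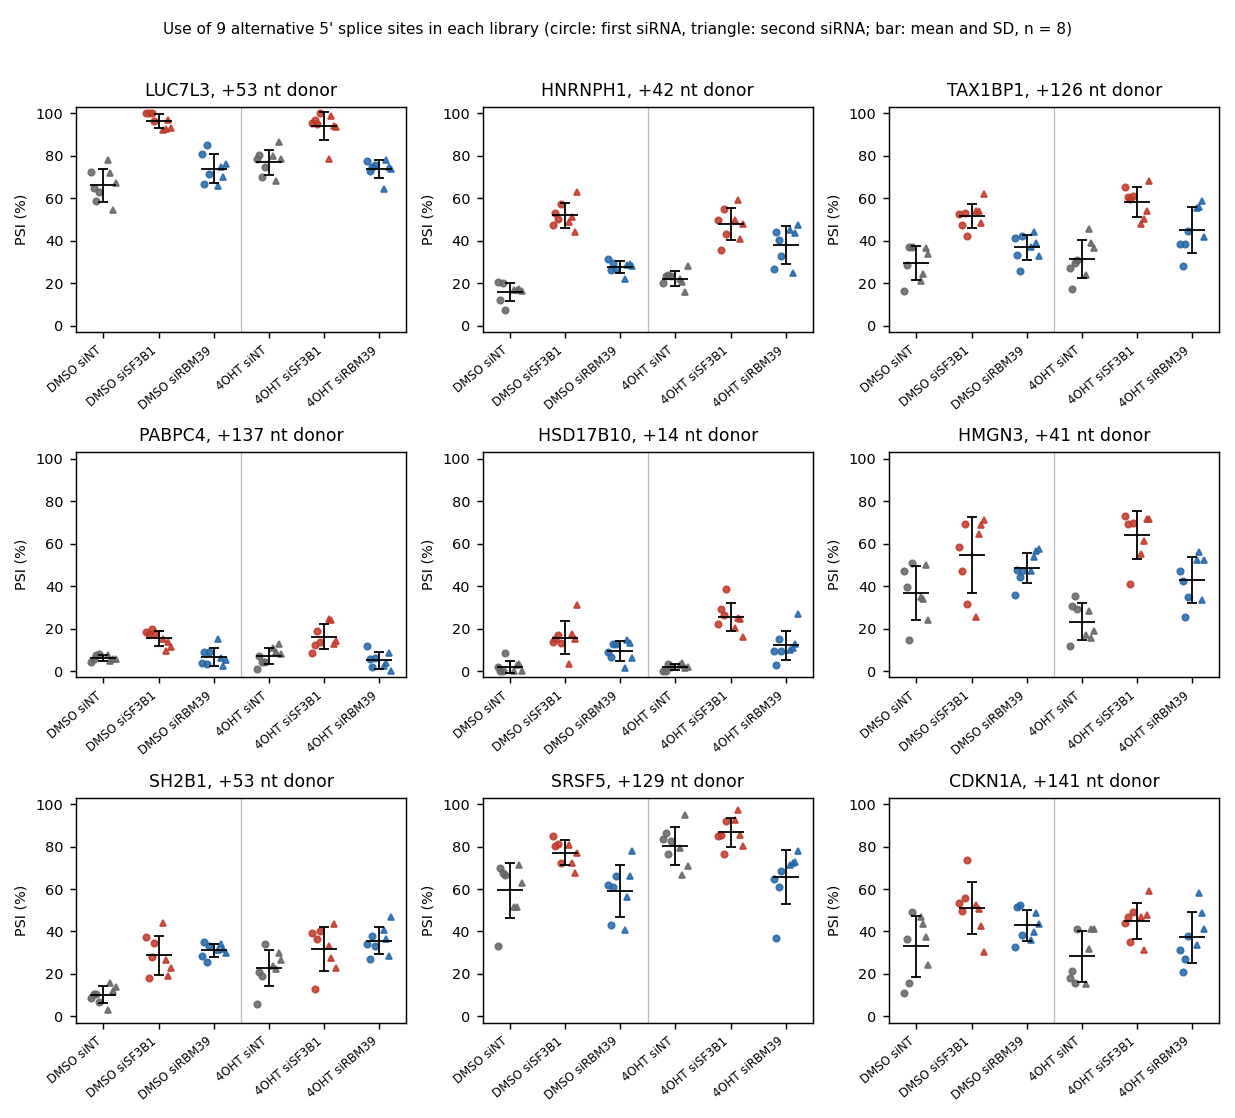
PSI (vertical axis, %) of 9 downstream donors in each of the 48 libraries, by group. Circles are libraries of the first siRNA and triangles those of the second, and bars give the mean and SD (n = 8). LUC7L3, HNRNPH1 and TAX1BP1 were higher in siSF3B1 than in siNT in both treatments, while SH2B1 was higher in siRBM39 and in 4OHT siNT than in DMSO siNT.

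Many further donors fell outside that rule, through shallow coverage or overlap, and were chosen after their values were seen. HSD17B10, a mitochondrial dehydrogenase and part of mitochondrial RNase P, used its downstream donor (chrX:53431974-53431987, minus strand, GRCh38) hardly at all in siNT, with medians of 0.86% in DMSO and 1.80% in 4OHT. After siSF3B1 the medians were 14.9 and 24.7%, rises of 13.7 points (adjusted p = 2.66e-07) and 23.5 points (adjusted p = 1.20e-09), the latter without overlap. After siRBM39 it rose by 7.52 points in DMSO (adjusted p = 0.000340). In 4OHT the rise was 10.3 points (adjusted p = 0.000111; 8.18 points without siRBM39-08 replicate 4). The added 14 nucleotides are used in 1 annotated transcript, which is not coding, and coverage was very low in at least 1 library.

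HMGN3, a nucleosome-binding protein, showed the largest rise in 4OHT. PSI of its downstream donor ran from 11.7 through 23.5 to 35.2% in 4OHT siNT and from 40.7 through 69.4 to 73.0% in 4OHT siSF3B1, apart by 40.8 points (adjusted p = 7.38e-08). In DMSO the groups overlapped and the rise was 17.8 points (adjusted p = 0.0145), which was no longer called without replicate 2 or 3 (11.4 to 17.3 points). The difference between both effects was not called. PABPC4, a cytoplasmic poly(A)-binding protein, went from a median of 5.73 to 16.1% in DMSO, without overlap, and from 7.58 to 13.9% in 4OHT, towards a donor 137 nucleotides downstream used by no coding transcript. Its mRNA fell by 0.88 and 0.83 on the log2 scale.

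Among other rises after siSF3B1, WDR26, a subunit of the CTLH ubiquitin ligase, gained 17.5 points in DMSO and 9.94 in 4OHT. Its mRNA fell by 0.74 and 1.01. The WDR26 call in 4OHT was lost without replicate 2 or 4 (8.03 to 9.11 points). C3orf17 gained 11.4 and 9.73 points at its second tandem donor, and was not called without replicate 2 in DMSO (7.62 points) or without replicate 4 in 4OHT (8.34 points). CDKN1A, which encodes p21, gained 18.03 and 16.7 points at a donor in its first exon that adds 141 nucleotides of non-coding leader, while its mRNA rose by 0.78 and 0.27. Coverage of CDKN1A was very low in at least 1 library, its groups overlapped, and neither rise was called without replicate 1 (16.01 and 12.8 points). In DMSO the rise was 30.01 points with the first siRNAs alone and 6.045 points, not called, with the second. In 4OHT it was 19.8 and 13.7 points, called with neither alone.

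Fewer donors lost use after siSF3B1. TAF15, an RNA-binding protein of the FET family, lost 10.5 points in DMSO at a donor that adds 9 nucleotides, and its mRNA fell by 0.98. DRG2, a GTPase, lost 6.61 points in DMSO and 13.6 in 4OHT at a donor 5 nucleotides downstream. In DMSO this was not called without replicate 1, 3 or 4, where PSI fell by 5.19 to 6.51 points. TMEM126A, an assembly factor of mitochondrial complex I, lost 10.01 and 6.77 points. The DMSO call was lost without replicate 1, 2 or 4, where PSI fell by 8.56 to 10.1 points, and the 4OHT call without replicate 2, where it fell by 3.77 points. FASTK, a mitochondrial RNA regulator, lost 14.5 points in 4OHT without overlap, from a median of 97.9 to 87.4%. In DRG2 and TMEM126A the donor that gained is one that no annotated coding transcript uses.

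The called pairs moved mostly to the donor that was minor in siNT. This was so for 23 of 27 in DMSO and 20 of 23 in 4OHT. Over all 302 pairs, 57.6% and 62.6% moved towards the minor donor. A minor donor with a PSI under 5% in siNT cannot lose the 5 points that a call needs, so it could be called only when it gained. The minor donor was also defined from siNT libraries, which are the baseline of these comparisons. The direction of the called pairs was thus partly fixed in advance, and a preference for minor donors was not tested. Of 236 pairs with both donors annotated, both were used by protein-coding transcripts in 146. In 88 the minor donor alone was used by none, and in 0 the major donor alone. Among called pairs so annotated, the gaining donor was used by no coding transcript in 9 of 26 in DMSO and 11 of 23 in 4OHT, and the losing donor in 0 of either. Called pairs mostly lost the major donor, so the 0 for losing donors was nearly fixed in advance. Distances that were multiples of 3 made up 9 of 27 and 7 of 23 called pairs. By donor score, the gaining donor was the weaker in 13 of 21 rising pairs in DMSO and 14 of 20 in 4OHT, and over all 236 scored pairs the downstream donor was the weaker in 114. By distance, 10 of 101 pairs over 50 nucleotides apart were called in DMSO and 12 in 4OHT, and 10 and 11 of them moved downstream. Among the 90 pairs within 12 nucleotides, 7 and 5 were called and 4 of them moved downstream in each treatment.

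Averaged over all 302 pairs, the downstream donor was used slightly more after siSF3B1. The mean PSI per library was 59.5 ± 0.24% in DMSO siNT, between 59.16 and 59.93 (SD, n = 8). It was 60.5 ± 0.19% in DMSO siSF3B1, between 60.30 and 60.89, above every DMSO siNT library. In 4OHT, siNT averaged 59.8 ± 0.23% and siSF3B1 60.7 ± 0.30%, between 60.19 and 61.05, also without overlap. The siRBM39 libraries averaged 60.1 ± 0.29% in both treatments and overlapped siNT in each; the 4OHT difference of 0.338 points was 0.363 without siRBM39-08 replicate 4. The differences for siSF3B1 were 1.00 and 0.925 points. The median pair moved less, by 0.218 and 0.297 points, with 167 pairs higher and 125 lower in DMSO and 171 and 125 in 4OHT. For siRBM39 the medians were 0 and 0.0638 points, with 148 higher and 143 lower in DMSO and 153 and 140 in 4OHT. No test was made of a mean over chosen donors.

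RBM39 loss moved fewer donors. In siRBM39 against siNT, 16 donors were called in DMSO (12 rising and 4 falling, 4.31%), against 5.66% of all events, 1.60% rising and 4.06% falling. In 4OHT, 12 were called (7 rising and 5 falling, 3.23%), against 6.27% of all events, 1.60% rising and 4.67% falling. Without siRBM39-08 replicate 4, 18 and 11 were called. Leaving out replicate 3 of every siRNA took the count in 4OHT to 7. All 16 and all 12 lay on the same side with both RBM39 siRNAs. In DMSO 6 donors did not overlap between the groups, against 3.33% of all events, and in 4OHT 1 did not, against 3.63%, and 1 without siRBM39-08 replicate 4. Of the called pairs, 9 of 10 and 5 of 7 moved downstream, and none of the 90 pairs within 12 nucleotides was called in either treatment, where 46 donors of any distance had an unadjusted p under 0.05 in each.

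SH2B1, an adaptor of JAK2 and insulin receptor signalling, had the largest rise among the pairs called in DMSO. In siRBM39 against siNT, only HNRNPH1 and PKD1 met the rule for named donors. SH2B1, and UBAP2L and LAMB2 below, had very low coverage in at least 1 library. PSI of a donor 53 nucleotides downstream (chr16:28872706-28872758, plus strand, GRCh38) ran from 3.22 through 10.5 to 15.7% in DMSO siNT and from 25.8 through 31.4 to 35% in DMSO siRBM39. The groups were apart by 21 points (adjusted p = 5.14e-06). In 4OHT, where siNT already had a median of 23.1%, siRBM39 had 35.5% and the rise was 12.8 points (adjusted p = 0.0336), which was not called without siRBM39-08 replicate 4 (11.2 points), nor without any 1 of the 4 replicate numbers (9.48 to 14.1 points). After siSF3B1 it rose by 18.6 points in DMSO (adjusted p = 6.71e-06) and was not called in 4OHT. UBAP2L, a stress-granule protein, gained 23.5 points in DMSO at the fourth of its 4 donors, from a median of 13.9 to 37.5% without overlap (adjusted p = 6.05e-05), and the donor before it fell by 19.8 points. SNRPB2, a protein of the U2 snRNP, rose by 8.42 points in DMSO at a donor in its first exon, and was not called without replicate 2 (7.20 points). PIGG, an enzyme of GPI-anchor synthesis, went from a median of 2.71 to 17.8% in DMSO (14.2 points, adjusted p = 0.00399), not called without replicate 1 (12.1 points), and its mRNA fell by 0.90. GAPDH, the glycolytic enzyme, rose from 3.85 to 13.9% in DMSO at a first-exon donor. GAPDH has many pseudogenes, so this value is uncertain.

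Some donors fell after siRBM39. LAMB2, a laminin chain, went from a median of 99.2 to 91.5% in DMSO without overlap, a fall of 7.41 points (adjusted p = 0.000577). In 4OHT, CES2, a carboxylesterase, fell by 14.6 points (15.8 without siRBM39-08 replicate 4), and CNBP, a zinc-finger protein that binds nucleic acid, fell by 11.5 points (12.1 without it). CES2 was not called without replicate 1 or 3, where it fell by 11.9 to 12.3 points, nor CNBP without replicate 3, where it fell by 10.7 points. SRSF5 in 4OHT fell by 14.5 points, from a median of 81.0 to 69.9% (16.2 points without siRBM39-08 replicate 4). SRSF5 was not called without replicate 1, 2 or 3, where it fell by 11.9 to 14.9 points. The SRSF5 difference was -24.45 points with the first siRNAs alone and -4.56 points, not called, with the second. C14orf153, whose donors lie in exons annotated to KLC1 and to a readthrough gene, moved between its last donors after either knockdown. The donor that adds 31 nucleotides rose in siSF3B1 by 14.6 points (DMSO) and 19.7 (4OHT). In siRBM39 its rise was 14.6 points in DMSO and 20.4 in 4OHT (20.5 without siRBM39-08 replicate 4). The siRNAs of a target differed in DMSO, with means of 53.2% for siSF3B1-13 and 67.0% for siSF3B1-16, and of 51.9% for siRBM39-06 and 68.2% for siRBM39-08. The DMSO call of siRBM39 was lost without any 1 of the 4 replicate numbers (13.1 to 15.6 points) and with the first siRNAs alone (9.74 points), and that of siSF3B1 without replicate 1 (13.05 points) and with the first siRNAs alone (11.03 points). Both knockdowns are set against the same siNT libraries, so these values are not independent of each other.

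Set directly against each other, the knockdowns differed at 29 donors in DMSO (17 higher and 12 lower in siSF3B1) and 24 in 4OHT (18 and 6), while 17.5% (5.35% higher and 12.1% lower) and 20% (6.65% and 13.4%) of all events were called. LUC7L3 was 22.5 points higher in siSF3B1 than in siRBM39 in DMSO (adjusted p = 1.09e-08), and in 4OHT 20.2 points higher (adjusted p = 9.27e-07; also 20.2 without siRBM39-08 replicate 4), without overlap in either. The fourth HNRNPH1 donor was 24.2 points higher in DMSO (adjusted p = 6.73e-07) but 9.69 points in 4OHT (adjusted p = 0.0354), a difference not called with either siRNA alone, nor without replicate 1 (8.23 points) or replicate 2 (8.52 points), and 11.01 points without siRBM39-08 replicate 4. In 4OHT, the rule named TRIO, a guanine-exchange factor, 13.5 points higher, and ACVR1, a BMP receptor, MYBBP1A, a nucleolar protein, and METTL11A (NTMT1), an N-terminal methyltransferase, lower by 6.79, 5.68 and 5.81 points. Without siRBM39-08 replicate 4, these were 11.7, and 8.27, 5.84 and 5.81 lower, and 27 donors were called. Of these calls, TRIO was lost without replicate 1 or 4 (9.17 to 10.5 points higher), ACVR1 without replicate 1, 2 or 3 (PSI fell by 5.78 to 6.02 points), MYBBP1A without replicate 1, 2 or 4 (fell by 4.50 to 5.87 points) and METTL11A without replicate 3 (fell by 4.85 points). DRG2 did not overlap, with a median of 85.2% in siSF3B1 and 96.8% in siRBM39.

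RAS activation alone moved few donors. In 4OHT against DMSO with siNT, 3 of 371 were called, all rising, against 0.882% of all events, 0.267% rising and 0.614% falling, and 47 had an unadjusted p under 0.05. SRSF5, an SR protein that binds exonic enhancers, went from a median of 64.7 to 81.0% at a donor 129 nucleotides downstream in its first exon, a rise of 20.8 points (adjusted p = 0.0231). SH2B1 went from 10.5 to 23.1% (12.7 points, adjusted p = 0.0184), and FAM126A (HYCC1 in the annotation) from 86.2 to 98.6% (10.4 points, adjusted p = 0.0144). Each overlapped between the groups, and all 3 had very low coverage in at least 1 library. SRSF5 mRNA with siSF3B1 in DMSO fell by 0.43 while its donor rose by 17.7 points, a call lost without replicate 1 (10.2 points). Without replicate 3, 1 donor was called. SRSF5 was not called without replicate 1, 3 or 4 (14.8 to 23.7 points), SH2B1 without 3 or 4 (10.3 to 12.5) and FAM126A without 2 or 3 (8.66 to 9.75). The direction of the calls varied with the processing: with at least LOW coverage the 1 call was a fall, and a plain logit gave 5 rises and 3 falls.

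The effect of each knockdown in 4OHT was also set against its effect in DMSO (limma). For siSF3B1, 0 of 371 donors had a called difference of effects, against 0.311% of all events, with 23 at an unadjusted p under 0.05. For siRBM39 it was 0, against 0.00723% of all events, with 19 unadjusted. The count was 0 in every alternative fit. The largest difference of effects was 23.02 points for siSF3B1, at HMGN3, and 14.9 for siRBM39, at MAP7D1. That none was called does not show that the effects were equal. Of the donors called after siSF3B1, 18 were called in both treatments, 54.5% of those in DMSO and 64.3% of those in 4OHT. After siRBM39 it was 6, 37.5% and 50%. All shared donors moved the same way.

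**Figure D2:**
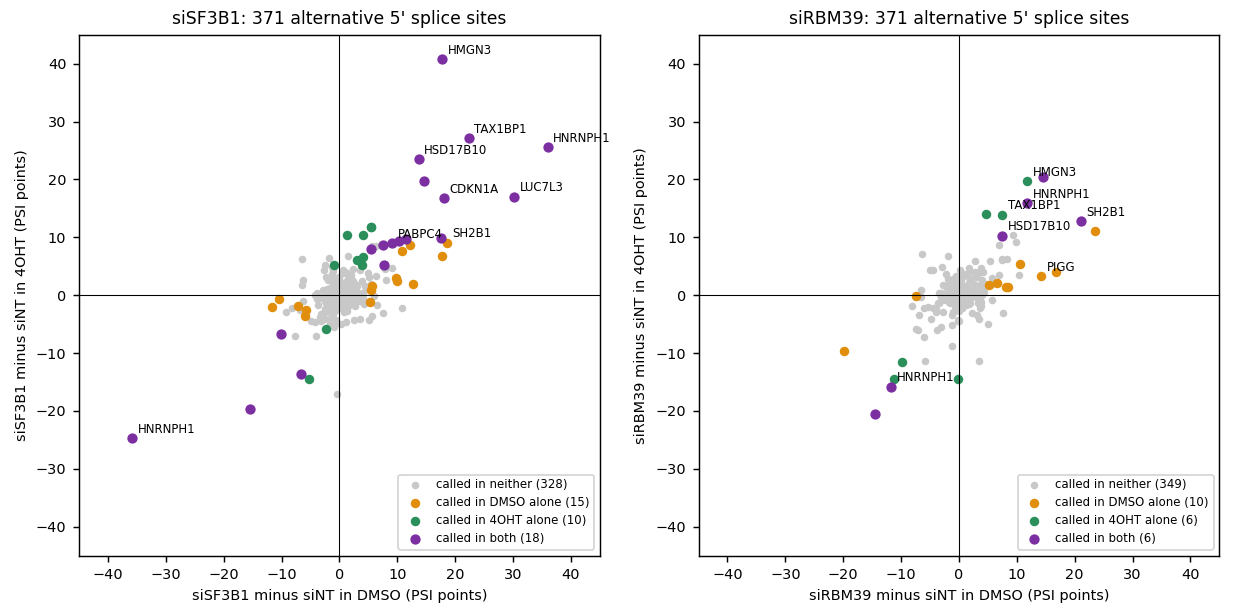
Difference from siNT in DMSO (horizontal axis, PSI points) and in 4OHT (vertical axis) for 371 donors after siSF3B1 (left) and siRBM39 (right), coloured by where they were called. After siSF3B1, 18 donors were called in both treatments, and after siRBM39 6.

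Host genes were also read by list. Donors in splicing-factor genes, in 5′ splice-site factors and in senescence, RAS and cell-cycle genes made up 22 of those tested. Of these, 8 (36.4%) were called in at least 1 knockdown comparison, where 51 of all 371 donors (13.7%) were. The 8 lay in SRSF5, LUC7L3, CDKN1A, SNRPB2, HNRNPH1 (2 donors), SF1 and ISY1. The lists were chosen with earlier results of these data known, and the 2 HNRNPH1 donors belong to 1 set. Both shares are therefore descriptions, and no enrichment was tested. SF1, the branch-point-binding protein, rose by 5.38 points in DMSO siSF3B1 at its tandem donor (adjusted p = 0.0311), a call lost without replicate 1, 2 or 4 (4.11 to 5.66 points) and 1.31 points with the second siRNA alone. ISY1, a spliceosome protein, rose by 5.17 points in 4OHT siSF3B1 (adjusted p = 0.000792), not called without replicate 3 (4.16 points). ADAR, the RNA-editing enzyme, was a member but was not called, at 88.2 ± 8.6% in DMSO siNT and 94.6 ± 5.3% in DMSO siSF3B1 (SD, n = 8; adjusted p = 0.0521). BCL2L1, known for its donor choice between long and short forms, was scored N, the class for too few reads, at its 2 listed sets in 47 and 48 of the libraries, and was not tested. LMNA, in which a cryptic donor gives progerin, had coverage in all libraries at 4 of its 6 listed sets, and none of these varied by more than 0.41 points.

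Many factors that recognise or modulate donors changed in mRNA, as did many of all genes. Whether the listed genes moved more often than all genes was not tested. Of 45 genes listed, 39 were tested (edgeR, adjusted over 9991 genes). After siSF3B1, 23 were higher and 11 lower in DMSO, and 20 and 13 in 4OHT, while 36.5% and 36.2% of all genes in DMSO, and 39.4% and 37.6% in 4OHT, were higher and lower. After siRBM39, 15 and 6 in DMSO and 16 and 10 in 4OHT were higher and lower, against 23.9% and 22.2%, and 32.2% and 24.3%, of all genes. The 4OHT counts were also 16 and 10 without siRBM39-08 replicate 4. In 4OHT against DMSO, 10 were higher and 13 lower, against 39% and 39.1%. RBM5, a splicing regulator, had the largest fall after siSF3B1, with log2 changes of −2.05 and −1.94, and PRPF39, a U1-associated protein, rose by 1.03 and 1.51. TIA1, which helps U1 to bind weak donors, fell by 0.75 and 0.44. After siRBM39, LUC7L, a paralogue of LUC7L3, rose by 0.84 and 0.98, SNRNP70, the U1-70K protein, by 0.48 and 0.52, and NCBP1, of the cap-binding complex, fell by 0.89 and 1.07. HNRNPA1 fell by 0.86 in 4OHT siNT. Whether these changes take part in the donor shifts was not tested.

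Host genes of called donors moved in both directions, as did all genes. After siSF3B1 in DMSO, 12 of 31 were higher and 9 lower, against 36.5% and 36.2% of all genes. In 4OHT it was 13 and 7 of 26, against 39.4% and 37.6%. After siRBM39 in DMSO it was 4 and 4 of 13, against 23.9% and 22.2%. In 4OHT it was 3 and 2 of 10, also without siRBM39-08 replicate 4, against 32.2% and 24.3%. Whether host genes moved more often than all genes was not tested. Among hosts with lower mRNA after siSF3B1 were VARS (valyl-tRNA synthetase), with a log2 change of −1.01 in 4OHT, and BCR, with −0.79, both with a gain of 6.52 and 6.05 points at a donor used by no coding transcript. TMEM126A, also moving to such a donor, rose by 0.59 and 0.89. In these bulk libraries, fewer transcripts per cell could not be told apart from a smaller share of cells that expressed the gene.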

How the data were processed

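The authors sequenced 48 RNA libraries (single-end, HiSeq2500) and ran vast-tools (version 2) against its hg19 database. The deposited event table gives, for every library, the PSI of each event in percent and a quality field with a coverage class (N, VLOW, LOW, OK, SOK) and the inclusion and exclusion reads. The deposited gene table holds raw counts per gene, as the authors made them; a CPM table was not used. Event coordinates are named hg19 in the deposited table but 609 of 693 donors coincide with exon ends of GENCODE 44 in GRCh38, so coordinates are given as GRCh38 and sequences come from the same exons in GRCh37. No column lacked a sample (0).

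Groups came from the labels. Events kept had PSI and coverage in every library and a PSI range of at least 5; introns also needed a balance p of at least 0.05. PSI was squeezed (0.01 + 0.98 × PSI/100), turned into logits and fitted with limma 3.58.1 (R 4.3.3) with 1 mean per group, adjusted by Benjamini-Hochberg over all 13840 events. Genes with at least 10000 counts in total were tested with edgeR 4.0.16 (quasi-likelihood, TMM); DESeq2 1.42.0 and limma-voom were alternatives. The hg19 build and the tools edgeR and limma are named in the submitters' processing notes. Tables were handled in Python 3.11.15 with numpy 2.4.6 and pandas 2.3.3. Scripts were tested on simulated data. Replicate pairs of the same siRNA and treatment differed by more than sampling noise (chi-square over genes of 2.00 or more for each degree of freedom), so each library counted once.

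The members and all gene lists were chosen with earlier results of these data known. Named donors were, per comparison with siNT, up to 3 each way among those called, with at least LOW coverage and no overlap; for siSF3B1 against siRBM39 in 4OHT and the differences of effects the overlap condition was dropped; list genes called at that coverage, BCL2L1, LMNA and ADAR were added. Of 56 donors followed library by library, 43 fell outside this rule and were chosen after their values were seen. A PSI rests on a median of 55 reads (lowest 2, highest 735), which limits small shifts in single libraries. Some donors are not reported here.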

Additional observations from a re-analysis of the deposited data

Results flagged for a closer look

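For 56 donors and for the mean over 302 pairs, the highest and lowest library of each group of 8 were set against the rest. Of 342 groups, 24 held a library farther from its neighbour than Dixon's limit allows. The usual rate of about 1 in 20 groups flagged by chance does not hold where PSI values are tied at 0 or 100. In AK1 in 4OHT siNT, for example, the other libraries were all at 100, and in BCR and MRPL2 in DMSO siNT all at 0. Any value off such a tie is flagged, so the 24 flags cannot be read against that rate. Values are PSI of single libraries. At LUC7L3 in 4OHT, siSF3B1-16 replicate 1 had 78.53% where the other siSF3B1 libraries had 93.64 to 100%, and siRBM39-08 replicate 1 had 64.23% where the others had 72.68 to 77.71%; they rested on 81 and 94 reads. At PKD1 in 4OHT, siSF3B1-13 replicate 1 had 19.63% (others 10.78 to 14.86), and at HSD17B10 in DMSO, siNT1 replicate 4 had 8.33% (others 0 to 3.23). At SRSF5 in 4OHT, siRBM39-06 replicate 2 had 36.73% (others 60.98 to 77.78). At UBAP2L in DMSO, siNT1 replicate 1 had 0% (others 11.76 to 20) on 23 reads. In siNT, single libraries lay low for CNBP in DMSO (39.33%) and for AK1 (96.18%), DRG2 (88%) and FAM126A (86.96%) in 4OHT, and high for BCR (6.04%) and MRPL2 (4.35%) in DMSO.

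After siSF3B1, single libraries lay apart for GRINA in DMSO (79.86%) and for AK1 (87.54%), LAMB2 (92.86%), LENG8 (26.32%) and TMEM126A (73.33%) in 4OHT. After siRBM39, they did for BCR (18.07%), MYBBP1A (85.71%), SNRPB2 (93.59%) and TRIO (50%) in DMSO, and for LAMB2 (82.76%), TMEM126A (84.21%) and YIPF5 (8.12%) in 4OHT. Of the 24 values, 22 rested on under 100 reads.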

How the results depend on the processing

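Counts of called donors are given in the order siSF3B1 against siNT in DMSO and 4OHT (33 and 28), siRBM39 against siNT in DMSO and 4OHT (16 and 12), 4OHT against DMSO in siNT (3), and siSF3B1 against siRBM39 in DMSO and 4OHT (29 and 24). With at least LOW coverage in every library (198 donors tested) they were 19, 15, 9, 6, 1, 19 and 14, and with every donor of a set kept (693) they were 60, 53, 26, 20, 6, 53 and 44. The first siRNA of each target alone gave 23, 21, 9, 5, 0, 21 and 23, and the second 19, 18, 8, 9, 1, 8 and 9; both use fewer libraries. A plain logit, which kept 96 donors, gave 23, 16, 11, 13, 8, 25 and 15. Without a minimum difference the counts were 54, 57, 21, 16, 3, 45 and 45, and with one of 10 points 21, 15, 10, 12, 3, 11 and 17. For 4OHT against DMSO, logits of reads plus 0.5 gave 7, the fit on the groups compared gave 1, and P_diff of at least 0.8 gave 13; for siSF3B1 in DMSO P_diff gave 21. The 3 calls for 4OHT against DMSO were rises, while LOW coverage gave 1 fall, a plain logit 5 rises and 3 falls, reads plus 0.5 gave 6 and 1, and no range filter 1 and 1. Without a PSI range filter (1426 donors) the counts were 27, 25, 14, 9, 2, 20 and 20. Leaving out the last donor of each set in place of the first (355 donors) gave 30, 27, 13, 10, 3, 28 and 21. Leaving out each replicate number in turn gave 26 to 35, 25 to 30, 13 to 17, 7 to 11, 1 to 3, 21 to 27 and 18 to 22; the low values 7 and 1 came without replicate 3. Without 4OHT siRBM39-08 replicate 4 they were 33, 29, 18, 11, 3, 28 and 27. At a 2-fold minimum, the 5′ splice-site factor genes called fell from 34, 33, 21, 26 and 23 to 2, 3, 0, 1 and 0 in the first 5 comparisons. BCR mRNA after siRBM39 in DMSO had a log2 change of -0.23, but 0.0548 with the first siRNA and -0.54 with the second. It was not called without replicate 2, 3 or 4 (-0.232 to -0.190). Across the single donors and alternatives, 1511 values kept direction and call and 304 kept direction but lost the call; for host genes these were 1365 and 259, with 1 reversed. Where construction does not show it, the cause was not tested.

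With the replicate number as a block, the counts were 33, 28, 17, 12, 3, 28 and 24. The numbers did not pair the libraries: same-numbered libraries had a median correlation of deviations of 0.012 (lowest -0.90), and 15 of 48 libraries correlated best with their own number.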
